A study of Rattus norvegicus with 15 samples.

Results

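The intact posterior cerebral artery of the rat, taken from animals without surgery, was described from 3 of the 15 arrays in the series. The 3 members were the arrays whose source label names the intact control, and 15866 probe sets remained for each after 57 control probe sets were left out. Each array held pooled RNA from the arteries of 8 Sprague Dawley rats, 7 weeks old and weighing 300 to 350 g. The other 12 arrays came from 4 operated groups of 3, taken 24 h or 3 d after sham surgery or after closure of 3 vessels supplying the brain (3-VO). Rats of the same strain, age and weight were used in all 5 groups. In the intact group the vessels were filled with latex under dilation by papaverine, the brain was kept in RNAlater, and the artery on the ipsilateral side was dissected. The labels call the artery ipsilateral although no side was operated on in these rats, and they do not give the sex. RNA was amplified from its poly(A) tail with an oligo(dT) primer. A pool averages over rats, so differences between single animals cannot be seen. The design text speaks of repeated hybridisation, and nothing in the labels says that the 3 pools held different rats. The SD between arrays therefore cannot be read as a spread between groups of rats, and its source was not tested.

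The posterior cerebral artery runs over the base of the brain within the leptomeninges, the thin inner coverings that enclose the cerebrospinal fluid. Its wall has an endothelium that lines the lumen, layers of contractile smooth muscle that set its diameter, and an outer coat of collagen and fibroblasts. Branches of the artery supply the choroid plexus, the epithelium that secretes cerebrospinal fluid, and others enter the brain surface beside astrocytes, neurons and myelin. RNA of a dissected artery can therefore hold all of these tissues together with the blood left in the lumen.

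The values are linear array signals, and the trimmed mean was 5000 on each of the 15 arrays. Medians on the 3 intact arrays ranged from 2580 to 2900. The ratio of the 3' to the 5' probe sets of GAPDH was 1.05, 1.59 and 1.23 on intact replicates 1, 2 and 3, against 1.03 to 1.41 on the 12 operated arrays. For actin the ratio was 2.07, 3.1 and 2.05, against 1.61 to 2.4. Intact replicate 2 therefore had the highest ratio of all 15 arrays for both genes, and the part of this in the results was not tested. The median SD over 3 arrays, on the scale log2(signal + 160), was 0.3 in the intact group and 0.22 to 0.28 in the operated groups. It was highest in the intact group, though close to the 0.28 of sham at 3 d. Spearman correlations between intact arrays lay between 0.937 and 0.948 over all probe sets, which are not independent replicates. Between sham arrays at 3 d they lay between 0.938 and 0.96. Among the sham arrays, 1 at 3 d has a treatment text that describes the vessel closure. It enters only these sham values and the ranges given for operated arrays.

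A background limit was needed to say which genes gave a signal. It was set at 1370, the 90th percentile of the mean signals of 67 measured genes known from liver, pancreas, kidney, testis, retina and other tissues apart from the arteries of the head. By this limit 2 of the 67, Uox of liver and Ins1 of pancreas, were themselves above it on all 3 arrays. Of the 10411 genes with a probe set of their own, 7240 were above this limit on all 3 intact arrays, which is 69.5% of the genes, and 2042 (19.6%) were above it on none. A gene was called bright when its mean signal was at least 13800, the level reached by the top 10% of probe sets, and 1236 genes (11.9%) were bright. Counts of list members below are to be read beside these shares of all genes. Each gene is given by its brightest probe set, and its place above or below the limit is that of this probe set unless another is named. Probe sets bind with different efficiency, so a rank is a rank of signals and does not order genes by amount of RNA. Lists and members were chosen with earlier results of these data known. The share of a list above the limit therefore does not measure how complete a tissue is.

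Among probe sets of a single gene, the highest mean signal was that of Ptgds, the enzyme that makes prostaglandin D2 and is known as a product of leptomeningeal cells and of choroid plexus. Its signal was 309000, 372000 and 373000 on replicates 1, 2 and 3, with a mean of 351000 ± 36600 (SD, n = 3). The next highest means belonged to subunits of cytochrome c oxidase encoded in the mitochondrial genome, listed as COX1 and COX2, with means of 303000 ± 61300 and 295000 ± 45400 (SD, n = 3). Hbb, the beta chain of haemoglobin, followed with 211000, 185000 and 294000, a mean of 230000 ± 56700 (SD, n = 3). Its probe set is of a type that can bind near-identical globin genes. Among single genes the 4 highest places were thus held by a secreted enzyme of the brain coverings, products of mitochondrial DNA and a product of red blood cells.

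Secreted carriers and growth factor partners made up much of the rest of the 30 highest signals. Apoe, the lipid carrier of brain and macrophages, had a mean of 184000 ± 17000 (SD, n = 3), and Clu, an extracellular chaperone, 172000 ± 29600. Sparcl1, a matrix-associated glycoprotein, was among the steadiest with 161000, 170000 and 169000. Cst3, an inhibitor of cysteine proteases found in cerebrospinal fluid, had a mean of 162000 ± 19800 (SD, n = 3). Igfbp2, which binds insulin-like growth factors, reached 156000 ± 36700, and its ligand Igf2 reached 145000 ± 21200. The growth factor and its binding protein both had their highest signal on replicate 3.

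The protein synthesis machinery and the cytoskeleton held most of the remaining places. Eef1a1, the factor that brings transfer RNA to the ribosome, had a mean of 223000 ± 32000 (SD, n = 3), and 7 of the 30 genes encode ribosomal proteins, from Rps29 (158000 ± 7500) to Rpl27a (116000 ± 14200). Tmsb4x, an actin-binding peptide, was at 156000 ± 4000, and Actg1, a cytoplasmic actin, at 118000 ± 28700. Vim, the intermediate filament of mesenchymal cells and astrocytes, was at 136000 ± 16200. Brain genes among the 30 included Mbp, a structural protein of myelin (155000 ± 2700), and Nnat, a small membrane protein of developing and adult brain (163000 ± 21600). Cpe, which processes prohormones, was at 149000 ± 30200. Cd81 (147000 ± 9410) is a membrane tetraspanin and B2m (129000 ± 31000) the light chain of class I histocompatibility molecules. Aldoa (142000 ± 10500) is an enzyme of glycolysis and Tsc22d1 (143000 ± 18400) a regulator of transcription.

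A few of the 30 genes differed widely between arrays. Ttr, the carrier of thyroid hormone and retinol that choroid plexus secretes, had signals of 22900, 282000 and 189000, with a mean of 165000 ± 131000 (SD, n = 3), so its rank rests on replicates 2 and 3. Rpl37a stood at 79200, 183000 and 89600 and was high on replicate 2 alone. Zwint stood at 169000, 169000 and 97300 and was low on replicate 3. None of the 30 genes was highest on replicate 1, 12 were highest on replicate 2 and 18 on replicate 3. Among all genes the highest array was replicate 1 for 27.0%, replicate 2 for 36.8% and replicate 3 for 36.2%. At or above the signal of the 30th gene lay 52 probe sets, of which 30 belong to a single gene, 14 to several genes and 8 to no named gene. The 22 without a single gene are not named here.

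**Figure D1:**
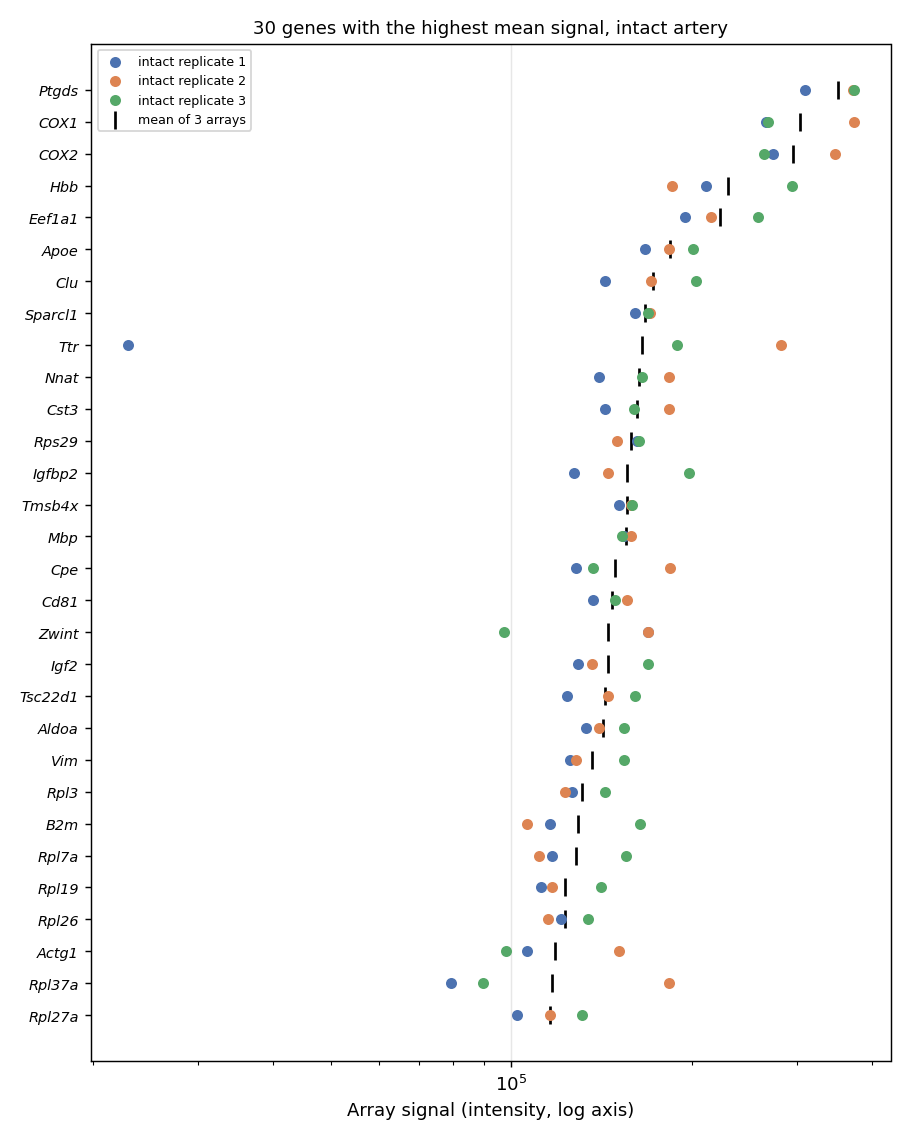
Signals of the 30 genes with the highest mean on the intact arrays, highest at the top, with the array signal on a log axis. Each coloured point is 1 array and the black mark is the mean of 3. Most genes have their 3 points close together, whereas Ttr spans 22900 to 282000.

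Smooth muscle had the highest median percentile of signal among the lists of the wall, at 92.4. Of 28 genes on the list of contractile smooth muscle, 26 were measured, 25 (96.2%) were above the background limit on all 3 arrays and 16 were bright. Among all genes 69.5% were above it and 11.9% were bright. Tagln, an actin-binding protein of smooth muscle, had signals of 75200, 94600 and 135000, a mean of 102000 ± 30500 (SD, n = 3). Myh11, the smooth muscle myosin heavy chain, was at 43600, 90600 and 88800, and Acta2, smooth muscle actin, at 31300, 60400 and 52600. All 3 defining markers were thus far above the limit on every array, and all 3 were lowest on replicate 1. Myl9, the regulatory light chain of myosin, had a mean of 68300 ± 19200 (SD, n = 3), and Tpm2, a tropomyosin, 67400 ± 28600. The single member not above the limit on every array was Itga8, an integrin subunit, at 1230, 1390 and 1510. It is named after its values were seen.

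Promoter sequences from RefSeq (build GRCr8) are shown for 3 genes on which the description turns: the defining smooth muscle actin, the blood gene with the highest signal among probe sets of a single gene, and the gene with the widest spread over the arrays. Each run covers 250 bases before to 50 bases after the start of the gene, 5' to 3' on the gene's strand, with any match to TATAA or GGGCGG in capitals. The Acta2 window is chr1:241172454-241172753, that of Hbb is chr1:167663672-167663971 and that of Gabra6 is chr10:27327185-27327484, all on the minus strand.
Acta2: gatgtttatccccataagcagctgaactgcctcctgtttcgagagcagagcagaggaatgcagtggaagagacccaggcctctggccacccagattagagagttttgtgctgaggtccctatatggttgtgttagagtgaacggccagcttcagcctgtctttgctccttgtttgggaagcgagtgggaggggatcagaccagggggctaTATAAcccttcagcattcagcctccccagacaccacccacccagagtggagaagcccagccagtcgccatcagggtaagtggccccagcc
Hbb: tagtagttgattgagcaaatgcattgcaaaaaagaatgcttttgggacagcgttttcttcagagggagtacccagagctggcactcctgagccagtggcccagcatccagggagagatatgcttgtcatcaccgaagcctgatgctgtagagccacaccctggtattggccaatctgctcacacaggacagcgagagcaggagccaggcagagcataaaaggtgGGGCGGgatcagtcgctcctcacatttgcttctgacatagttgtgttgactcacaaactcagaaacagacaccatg
Gabra6: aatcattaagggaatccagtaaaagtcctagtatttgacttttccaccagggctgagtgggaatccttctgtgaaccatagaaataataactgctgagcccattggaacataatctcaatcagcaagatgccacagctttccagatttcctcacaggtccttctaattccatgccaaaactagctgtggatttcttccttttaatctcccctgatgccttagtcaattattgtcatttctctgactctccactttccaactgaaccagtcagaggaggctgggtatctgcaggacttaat
Acta2 held the TATAA letters, Hbb held the GGGCGG letters and Gabra6 held neither. A match is a run of letters and does not show that a factor binds there.

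Both motifs were counted on both strands in the promoters of genes with a single start in the table. GGGCGG, the core of a GC box, was found in 35.9% of all 24206 promoters and in 59.9% of the 8124 promoters of measured genes. Among bright genes 68.2% of 974 promoters held it, and among genes above the limit on none of the arrays 40.1% of 1587. TATAA went the other way, with 16.1% of measured genes, 14.9% of bright genes and 29.1% of genes above the limit on none. The genes of other tissues that set the limit held GGGCGG in 5.66% and TATAA in 62.3% of 53 promoters. In the contractile list 60% of 20 promoters held GGGCGG and 10% held TATAA, near the shares of all measured genes.

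Endothelial genes passed the limit at about the rate of all genes. Of 26 measured genes, 18 (69.2%) were above the limit on all 3 arrays, which is near the 69.5% of all genes. Bright were 3 of the 26, beside 11.9% of all genes. Cldn5, the tight junction protein of brain endothelium, had signals of 23900, 23600 and 43600, a mean of 30400 ± 11500 (SD, n = 3). Vwf, the clotting factor that endothelial cells store, was at 10800, 18600 and 22600. Esam, an adhesion molecule of endothelial junctions, had a mean of 15500 ± 7310, and Vcam1, an adhesion molecule for leukocytes, 12400 ± 1460. Of the defining markers, Pecam1 was near the limit at 1050, 1760 and 1510, and Cdh5 has no probe set of its own here. Selp and Sele, selectins of activated endothelium that are named after their values were seen, were below the limit on all 3 arrays. The endothelial signal thus rests on Cldn5, Vwf and Esam more than on Pecam1.

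Transporters of the blood-brain barrier were nearly all detected, with 10 of 11 measured genes (90.9%) above the limit, against 69.5% of all genes. Bright were 2 of the 11, beside 11.9% of all genes. Slco1a4, a carrier of organic anions, was at 32700, 33400 and 58300. Slc2a1, the glucose transporter of barrier endothelium, was at 16000, 18000 and 30500, a mean of 21500 ± 7860 (SD, n = 3). Tfrc, the transferrin receptor, had a mean of 12900 ± 2130, and Slco1c1, a carrier of thyroid hormone, 8700 ± 4050. Slco1a4 and Slc2a1 were both highest on replicate 3.

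Genes of arterial identity and Notch signalling were detected about as often as other genes. Of 16 measured genes 12 (75%) were above the limit, against 69.5% of all genes, and 2 were bright, beside 11.9% of all genes. The bright ones were Gja1, a connexin shared with astrocytes (74700 ± 6710, n = 3), and Cxcl12, a chemokine (39000 ± 14700). Gja4, a connexin of arterial endothelium, followed at 5510, 6900 and 12900, and Notch1 at 3830, 5190 and 4220. Another probe set of Gja1 was highest on replicate 1, whereas the one given was highest on replicate 3, so no order of its arrays can be read.

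Among pericyte genes, 9 of 11 measured (81.8%) were above the limit, against 69.5% of all genes. Bright were 2, beside 11.9% of all genes. Pdgfrb, the receptor through which pericytes and smooth muscle receive PDGF, was at 3580, 5600 and 7190. Cspg4, a proteoglycan of pericytes and oligodendrocyte precursors, was at 2490, 4350 and 3270. Abcc9, a subunit of a potassium channel, was below the limit on all 3 arrays at 898, 1270 and 1320. Vtn, an adhesive glycoprotein, had the highest mean of the list at 32600 ± 19500 (SD, n = 3), with Mcam, an adhesion molecule of vessel walls, at 14800 ± 6470 and Rgs5, a regulator of G protein signalling, at 8640 ± 3200. Of the 3 defining markers, then, 2 were above the limit on every array and none was bright. Without replicate 2 or replicate 3, 1 pericyte gene was bright instead of 2.

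Most listed genes of the outer coat were detected. Of 28 measured genes of fibrillar collagen and adventitial matrix 27 (96.4%) were above the limit, against 69.5% of all genes. Bright were 13, beside 11.9% of all genes. Mgp, an inhibitor of calcification in arteries, was at 90600, 78600 and 130000, a mean of 99800 ± 27000 (SD, n = 3). Col1a2 and Col1a1, the chains of type I collagen, had means of 88400 ± 11800 and 38700 ± 4920, and Col3a1, the chain of type III collagen, 45700 ± 10200. Dcn, a proteoglycan that binds collagen fibrils, differed more, at 43500, 21200 and 69100. Sparc, a matricellular protein, was at 75900 ± 10500 and Ogn, a small proteoglycan, at 55800 ± 14800. The collagen chains stayed close over the arrays while Dcn was low on replicate 2. Postn, named after its values were seen, was the single member not above the limit, at 687, 198 and 876.

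All 16 measured basement membrane genes were above the limit, against 69.5% of all genes, and 3 were bright, beside 11.9% of all genes. Besides Sparcl1 these were Lamb2, a laminin chain of vessel walls, at 14100, 24300 and 24900, and Nid1, which links laminin to collagen, at 17700, 15300 and 25900. Lama2, another laminin chain, was the fourth by signal at 6940, 18000 and 13700. Lamb2 and Lama2 were both low on replicate 1.

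Receptors and channels that set vascular tone were the least detected list of the wall. Of 35 measured genes 19 (54.3%) were above the limit, against 69.5% of all genes. Above it on none of the arrays were 10, beside 19.6% of all genes. The highest signals came from genes of calcium handling that neurons share. Atp2a2, the calcium pump of the sarcoplasmic reticulum, was at 46700, 42000 and 31100, and Itpr1, the receptor that releases stored calcium, at 52000, 27200 and 21600. Rgs4 had a mean of 17400 ± 6780 (SD, n = 3) and Atp2b1, the calcium pump of the plasma membrane, 16700 ± 4300. Itpr1 and Atp2b1 were highest on replicate 1, where the smooth muscle markers were lowest.

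**Figure D2:**
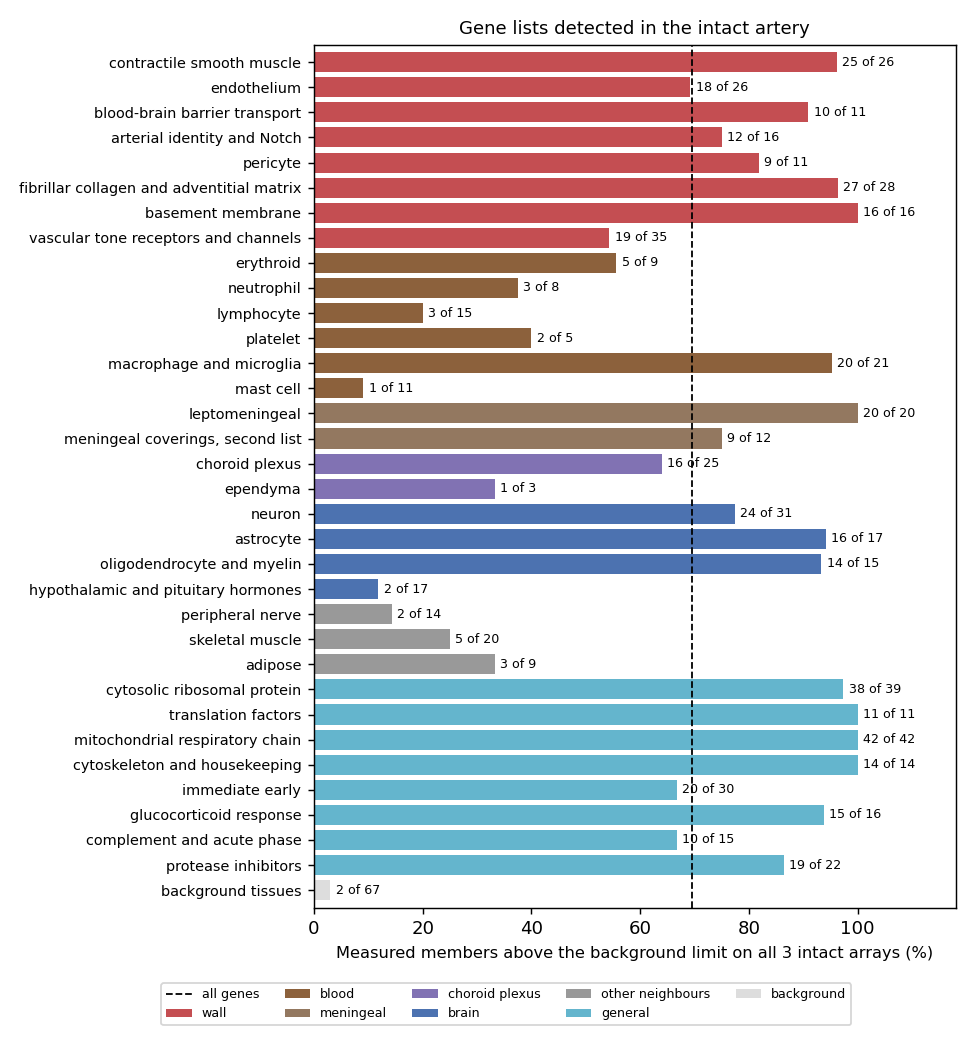
Percent of the measured members of each gene list above the background limit on all 3 intact arrays, coloured by tissue class, with counts beside the bars. The dashed line marks all genes at 69.5%. The macrophage and microglia list has the colour of the blood class, which does not place its cells in blood. Smooth muscle, matrix, leptomeningeal, macrophage, astrocyte and myelin lists lie to the right of it, and those of lymphocytes, mast cells, hormones and peripheral nerve well to the left.

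Blood in the artery was seen as haemoglobin. The highest signals came from 3 alpha-globin probe sets, each assigned to more than 1 gene and so not given to a single one, with means of 309000 ± 25000, 288000 ± 30900 and 209000 ± 33800 (SD, n = 3), and from Hbb. Hba-a3 was at 32500, 31500 and 35600, and Alas2, the red cell enzyme of haem synthesis, at 10500, 9620 and 16800. Bpgm, the red cell enzyme that sets the oxygen affinity of haemoglobin, had a mean of 9940 ± 651 (SD, n = 3). Hba-a1 has no probe set of its own. Of 9 measured erythroid genes 5 (55.6%) were above the limit, against 69.5% of all genes, and 2 were bright, beside 11.9% of all genes. Hbb, Hba-a3, Alas2 and Bpgm were all highest on replicate 3.

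Lymphocyte, neutrophil, mast cell and platelet genes gave little signal, unlike macrophage and microglial genes. Above the limit on all 3 arrays were 20% of lymphocyte, 37.5% of neutrophil, 9.09% of mast cell and 40% of platelet genes. Among all genes the share was 69.5%. Whether the macrophage signal came from blood or from tissue was not tested. Of 15 measured lymphocyte genes 3 (20%) were above the limit, none was bright, and the defining T cell marker Cd3e (325, 833 and 385) and B cell marker Cd79b (516, 122 and 534) were below it on all arrays. The lymphocyte genes with the highest signals were Cd4 (3050 ± 376, SD, n = 3), Lck (2590 ± 382), Ptprc (1780 ± 352) and Cd3g (1570 ± 546). Cd4 is also known from rat macrophages. Of 8 neutrophil genes 3 were above the limit: S100a9 was at 4610, 3830 and 7860, S100a8 at 1550, 1630 and 2310, and Lcn2 had a mean of 1550 ± 137. Of 11 mast cell genes 1 was above the limit. This was Kit, a receptor that other cells also carry (2350 ± 772). The mast cell proteases Tpsb2 (2830, 2950 and 477) and Cpa3 (1800, 1580 and 1290) passed it on 2 arrays and Cma1 (84, 112 and 180) on none. The platelet markers Itga2b (1800, 1930 and 1260) and Ppbp (820, 1440 and 1550) also passed on 2 arrays, and Pf4, which macrophages share, had a mean of 8860 ± 1660. Without replicate 2, 5 lymphocyte and 2 mast cell genes were above the limit, and without replicate 3, 3 mast cell genes were. Mpo has no probe set of its own.

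Most listed macrophage and microglial genes were detected. Of 21 measured genes 20 (95.2%) were above the limit, against 69.5% of all genes, and 7 were bright, beside 11.9% of all genes. Lyz2, the lysozyme of myeloid cells, was at 71900, 66400 and 118000, a mean of 85600 ± 28500 (SD, n = 3). Cd74, the invariant chain of class II antigen presentation, had a mean of 46900 ± 15000, and Ctss, a cathepsin that processes it, 35300 ± 11300. Fcer1g, the signalling chain of Fc receptors, had a mean of 26100 ± 7510. Csf1r, the receptor on which macrophages and microglia depend, was at 10900, 11100 and 20500, and Cd68, a lysosomal marker, at 3440, 3500 and 6360. For all 6 genes replicate 3 was the high array and replicates 1 and 2 lay close together. Without replicate 3, 4 of the members were bright instead of 7. Cd163 has no probe set of its own.

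The leptomeningeal list was among those with every measured member detected. All 20 measured genes of the list were above the limit, 16 were bright, and the median member stood at the 96.3rd percentile of signal. Among all genes 69.5% were above the limit and 11.9% were bright. After Ptgds, Igfbp2 and Igf2 came Gjb6, a connexin shared with astrocytes, with a mean of 50100 ± 12800 (SD, n = 3). Aldh1a2, the enzyme that makes retinoic acid in the meninges, was at 38500, 35100 and 70200. Slc6a13, a GABA and taurine transporter of leptomeningeal cells, was at 34300, 22100 and 47200, and Slc22a6, a carrier of organic anions, at 12500, 15600 and 19300. All 3 defining markers were bright on average and highest on replicate 3. Igfbp2 is shared with the choroid plexus list and Gjb6 with astrocytes.

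A second meningeal list held carriers and enzymes of retinoids and thyroid hormone together with matrix and transport genes of the coverings. Of its 12 measured genes 9 (75%) were above the limit, near the 69.5% of all genes, and 5 were bright. Apart from Ttr and Mgp, the highest were Rbp4, the retinol carrier (49800, 26600 and 76000), and Fmod, a proteoglycan of collagen fibrils (39700, 52400 and 59200). Rbp4 was lowest on replicate 2, the array on which its partner Ttr was highest.

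Choroid plexus genes stood at very different levels over the 3 arrays. Of 25 measured genes 16 (64%) were above the limit on all 3 arrays, near the 69.5% of all genes, 7 were bright on average, and 16 differed by more than 2 on the log2 scale between their highest and lowest array, as 2.96% of all genes did. Enpp2, which makes lysophosphatidic acid and is abundant in choroid plexus epithelium, was at 10600, 164000 and 48100. Folr1, the folate receptor that carries folate into the cerebrospinal fluid, was at 2050, 28400 and 7370. Kl, the ageing-related co-receptor of a fibroblast growth factor, was at 174, 3230 and 804 and passed the limit on replicate 2 alone. Replicate 2 was the highest array for 20 of the 25 genes and replicate 1 the lowest for 23, whereas among all genes replicate 2 was highest for 36.8% and replicate 1 lowest for 34.0%. Igfbp2 (127000, 145000 and 198000) and Slc13a4, a sulphate carrier (51100, 73100 and 70400), lay much closer together, and both are also known from other cells of the brain coverings. Krt8, Slc5a5, Trpm3, Trpv4, Cldn1 and Lbp also differed by less than 2 on the log2 scale between arrays. Kcnj13 was below the limit on every array and highest on replicate 1, at 622, 533 and 293. These further members are named after their values were seen. Without replicate 2, 4 members were bright instead of 7. The actin and GAPDH ratios given above were also highest on replicate 2, and their part in the result was not tested.

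The ependyma, the ciliated lining of the ventricles, could be judged from only 3 measured genes. Tekt1, a protein of the ciliary shaft, was at 1440, 6590 and 1970. Foxj1, the regulator of motile cilia, was at 547, 1540 and 1690, and Rsph1, a protein of the radial spokes, at 291, 1270 and 601. Tekt1 was above the limit on every array and high on replicate 2, and Rsph1 was above it on none. Without replicate 1, 2 of the 3 genes were above the limit. Spag6 has no probe set of its own.

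Astrocyte genes were nearly all detected. Above the limit were 16 of 17 measured genes (94.1%), 13 were bright and the median member stood at the 97.3rd percentile. Among all genes 69.5% were above the limit and 11.9% were bright. Gfap, the intermediate filament of astrocytes, was at 68600, 74100 and 77400, a mean of 73300 ± 4450 (SD, n = 3), and Aqp4, the water channel of the end-feet that surround vessels, at 43200, 32300 and 30800. S100b, a calcium-binding protein, had a mean of 84900 ± 17700, Aldoc, the brain aldolase, 80200 ± 32400, Glul, the glutamine synthetase, 76500 ± 20500, and Ndrg2 75500 ± 8000. The defining glutamate transporter Slc1a2 was at 1040, 1620 and 509, above the limit on replicate 2 alone, although its astrocytic relative Slc1a3, named after its values were seen, was at 53800, 42900 and 44400. Gfap and Ndrg2 differed little between arrays while Aldoc was higher on replicate 1.

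Of 15 measured myelin and oligodendrocyte genes 14 (93.3%) were above the limit, against 69.5% of all genes. Bright were 5, beside 11.9% of all genes. Mbp was at 154000, 158000 and 153000 and was also among the 10 bright genes with the smallest spread. Cldn11, a tight junction protein of myelin that meningeal cells also make, had a mean of 67900 ± 9830 (SD, n = 3), Mobp 41900 ± 5360 and Cnp, an enzyme of myelin, 35800 ± 7110. Mog, a protein of the outer myelin surface, was at 5100, 5180 and 6280. By the probe sets given, none of these named genes differed widely over the 3 arrays. Aspa of the same list, named after its values were seen, was at 6520, 4100 and 13700. Pdgfra, named in the same way, was at 29800, 26800 and 37200 and is also counted as bright in the adventitial matrix list. Cspg4 of the myelin list is also counted in the pericyte list. A further probe set of Cldn11 was at 14000, 5020 and 14400, and 1 of Mobp at 28700, 16300 and 28300. A further probe set of Mbp was at 98000, 71700 and 113000, so the close agreement belongs to the brightest probe set.

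Neuronal genes were detected as well, and were lower on replicate 3. Of 31 measured genes 24 (77.4%) were above the limit on all 3 arrays, against 69.5% of all genes, and 11 were bright. Replicate 3 was the lowest array for 27, against 34.9% of all genes. Snap25, a protein of synaptic vesicle fusion, was at 125000, 69600 and 37800, a mean of 77400 ± 44000 (SD, n = 3). Vsnl1, a neuronal calcium sensor, was at 56000, 28600 and 19000. Eno2, the neuronal enolase, had a mean of 28700 ± 8500 and Thy1 27100 ± 6750. Rbfox3, the nuclear protein known as NeuN, was at 15000, 5030 and 919, and by a further probe set at 11400, 3950 and 1950, above the limit on every array. Snap25, Vsnl1, Eno2 and Rbfox3 were ordered alike, highest on replicate 1 and lowest on replicate 3. Syt1 has no probe set of its own. In a bulk sample, fewer cells of a type and less RNA per cell cannot be told apart, and this holds for every tissue named here.

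Of 17 measured hormones of hypothalamus and pituitary 2 (11.8%) were above the limit on all 3 arrays and 8 on none. Among all genes 69.5% were above it on all 3 arrays and 19.6% on none. Avp, the antidiuretic hormone, was at 12600, 15100 and 568, and Oxt, oxytocin, at 4740, 4510 and 173. Both were clearly above the limit on replicates 1 and 2 and below it on replicate 3. The 2 members above the limit on every array were Gal, the neuropeptide galanin (2540 ± 1140, SD, n = 3), and Cartpt, a peptide precursor of the hypothalamus (1850 ± 705). Cartpt is named after its values were seen. Leaving out replicate 1, 2 or 3 gave 1, 4 and 8 hormones above the limit. The pituitary markers Prl (149, 618 and 139) and Pomc (68, 166 and 260) were below the limit throughout, and Gh1 was near it at 1380, 1930 and 1100.

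Of 14 measured genes of peripheral nerve 2 (14.3%) were above the limit, against 69.5% of all genes. Pmp22, a myelin protein that many mesenchymal cells also make, was at 29700, 15300 and 34300. The other was Slc18a2, the carrier that loads monoamines into vesicles (2700, 1660 and 1470). Prx, a protein of Schwann cells, was near the limit at 1890, 1780 and 1150, and Cdh19 has no probe set of its own. Th, the first enzyme of noradrenaline synthesis, was at 4130, 1150 and 1340 and above the limit on replicate 1 alone. Vip, a dilator peptide of perivascular nerves, was at 1220, 2900 and 1390. Without replicate 2, 4 nerve genes were above the limit instead of 2.

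Skeletal muscle genes gave signal chiefly on replicate 2. Of 20 measured genes 5 (25%) were above the limit on all 3 arrays, against 69.5% of all genes. Highest on replicate 2 were 14, against 36.8% of all genes. A range over 2 on the log2 scale was seen for 11, against 2.96% of all genes. Without replicate 1, 8 were above the limit. Acta1, skeletal actin, was at 2060, 12700 and 2750, and Ckm, muscle creatine kinase, at 2430, 8410 and 2340. Myl11, a fast myosin light chain, was at 163, 3440 and 173. These genes were high on replicate 2, with replicates 1 and 3 close to each other. The highest mean belonged to a probe set assigned to Myh1, a fast myosin heavy chain, at 36000, 20500 and 52200, which was lowest on replicate 2. Its further probe sets differed, and 1 of them, at 10600, 22900 and 4020, was highest on replicate 2, so no order of arrays can be read for Myh1. Pvalb, listed here as a calcium buffer of fast muscle and also known from inhibitory neurons, was highest on replicate 1. Of 9 measured fat cell genes 3 (33.3%) were above the limit, against 69.5% of all genes. They were Lpl (3460, 8790 and 6250), Cfd (4010, 2970 and 7840) and Cidea (2400, 2490 and 3470). The defining Plin1 and Lep were below the limit on every array. Adipoq has no probe set of its own.

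The general machinery of the cell was detected nearly in full. Of 39 measured cytosolic ribosomal protein genes 38 were above the limit and 37 were bright, against 69.5% and 11.9% of all genes. All 42 measured genes of the mitochondrial respiratory chain encoded in the nucleus were above the limit, 36 of them bright. Atp5f1b, a subunit of ATP synthase, was at 91300, 96400 and 90800, and Cox8a, Cox4i1 and Cox6c, subunits of cytochrome oxidase, had means of 91600 ± 9290, 88600 ± 6130 and 73700 ± 4510 (SD, n = 3). All 11 measured translation factors and all 14 genes of cytoskeleton and housekeeping were above the limit, with 11 and 13 bright. Among the translation factors Eif4a2, an RNA helicase, had a mean of 80800 ± 4930 and the elongation factors Eef1g and Eef2 had means of 53500 ± 11000 and 46200 ± 3250. A few members lay low, such as Rpl30 (642 ± 79.5) and Cox5a (1680 ± 270), which are named after their values were seen.

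Genes that respond quickly to stimuli were detected about as often as other genes. Of 30 measured immediate early genes 20 (66.7%) were above the limit, against 69.5% of all genes. Above it on no array were 5, and 4 were bright, beside 19.6% and 11.9% of all genes. Ccn2, a matricellular growth factor, was at 13800, 14400 and 32100, Ier3 had a mean of 18500 ± 4650 (SD, n = 3), Hsph1, a heat shock protein, 15900 ± 1560, and Dusp1, a phosphatase of MAP kinases, 14200 ± 2720. The 5 above the limit on no array, named after their values were seen, were Fosb, Atf3, Fosl2, Ptgs2 and Ccn1. Glucocorticoid-responsive genes were detected in 15 of 16 measured cases with 7 bright, led by Sult1a1 (41100, 17200 and 54900), Klf9 (34700 ± 9280), Mt2A (22100 ± 4250) and Sgk1 (21100 ± 4740). Ccn2 and Sult1a1 had their highest signal on replicate 3, and Sult1a1 and Klf9 their lowest on replicate 2.

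Protease inhibitors were detected in 19 of 22 measured cases with 10 bright, against 69.5% and 11.9% of all genes. Cst3 was followed by Timp3 and Timp2, inhibitors of matrix metalloproteinases, with means of 88300 ± 21500 and 44600 ± 5040 (SD, n = 3), and by Serpinh1, the chaperone of collagen, with 34100 ± 11500. Among complement and acute phase genes 10 of 15 (66.7%) were above the limit, near the 69.5% of all genes, and 3 were bright. After Clu came Serping1, the inhibitor of the first complement component (28500, 21300 and 46200), Cp, the copper-carrying ferroxidase (20700, 12400 and 28300), and C1s, a complement protease (9990 ± 2850). Serping1, Cp and Serpinh1 were highest on replicate 3.

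The widest differences between intact arrays belonged to a small set of genes. Among all 10411 genes, 308 (2.96%) had a range over 2 on the log2 scale, with 99 highest on replicate 1, 164 on replicate 2 and 45 on replicate 3. Of the 20 genes with the largest SD on this scale, 7 were highest on replicate 1, 13 on replicate 2 and none on replicate 3. The choroid plexus list held 8 of the 20, the neuron list held 1 and 7 were in no list. The spread was measured on all 3 arrays together, and 10, 7 and 16 of the 20 stayed among the 20 most variable without replicate 1, 2 and 3 in turn.

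The genes with the widest spread that were high on replicate 1 included receptors and proteins known from neurons of the cerebellum. Gabra6, a GABA receptor subunit of granule cells, was at 26700, 178 and 2640, which is at least 19.5-fold higher on replicate 1 than on replicate 2, whose signal was below the limit. Pcp2, a protein of Purkinje cells, was at 61800, 1920 and 7050, a 32.1-fold range. Neurod1, a regulator of neuronal differentiation kept by granule cells, was at 37800, 3160 and 3330, and Pvalb at 56400, 3340 and 8460. All 4 genes were high on replicate 1, and Neurod1 was about equal on replicates 2 and 3. Dao, which oxidises D-amino acids and is known from glia of the hindbrain, was at 3020, 42 and 652 and passed the limit on replicate 1 alone. Rbfox3 and Oxt, given above, complete the 7.

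Of the 13 genes high on replicate 2, 8 were of the choroid plexus list. Sostdc1, a secreted antagonist of BMP and Wnt signals, was at 2090, 62800 and 9390, a 30-fold range, and F5, coagulation factor V, at 1380, 40500 and 3850, a 29.3-fold range. Htr2c, the serotonin receptor of choroid plexus, was at 1570, 27600 and 6990. For these genes replicate 3 lay between replicates 1 and 2. Prlr, the prolactin receptor, was at 577, 16000 and 789, Otx2, a homeobox regulator of the plexus, at 535, 8560 and 597, and Cldn2, a claudin of leaky epithelia, at 1210, 21000 and 2520. Otx2 was above the limit on replicate 2 alone, and a further probe set of Prlr, at 833, 5530 and 1570, was above it on replicates 2 and 3. Mfrp, a membrane protein related to frizzled receptors, was on no list and was at 1950, 35000 and 5440, an order of arrays shared with Sostdc1, F5 and Htr2c. Cox8b, the muscle form of a cytochrome oxidase subunit, was at 77, 8010 and 292, and Scgb1c1, a secretoglobin, at 156, 11200 and 733. Both were above the limit on replicate 2 alone, as Myl11 was.

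**Figure D3:**
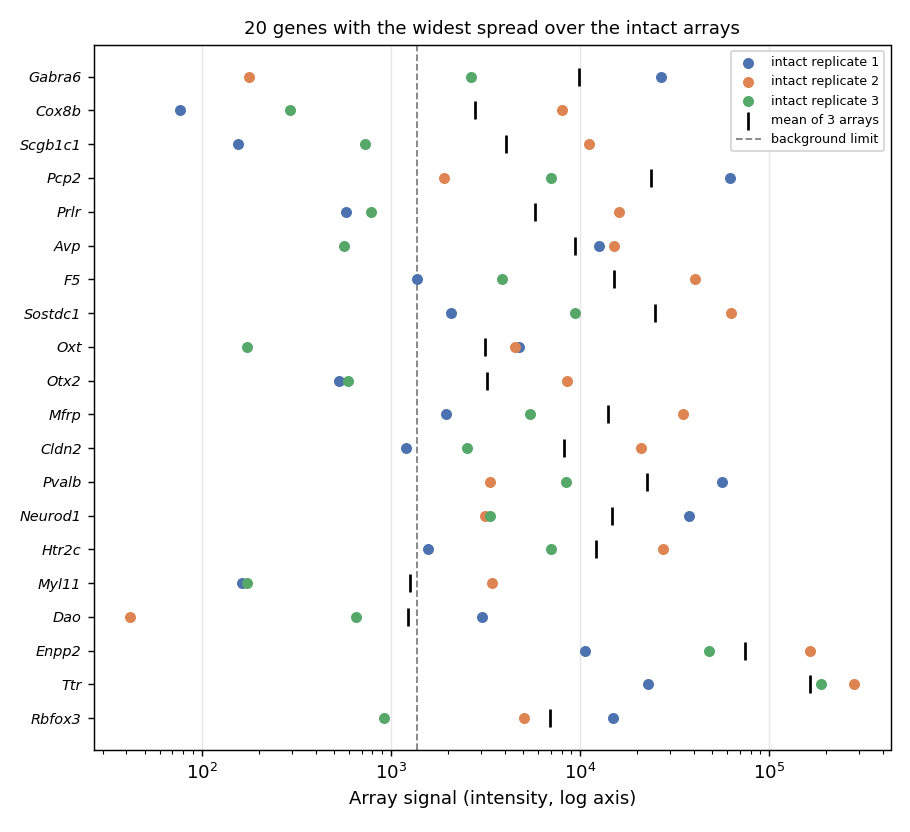
Signals of the 20 genes with the largest SD of log2(signal + 160) over the intact arrays, widest at the top, on a log axis. Coloured points are arrays, black marks are means of 3 and the dashed line is the background limit of 1370. Replicate 1 is the high array for Gabra6, Pcp2, Pvalb and Neurod1, and replicate 2 for Sostdc1, F5 and the other choroid plexus genes.

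At the other end, the bright genes with the smallest spread came from general cell functions. Cul1, the scaffold of a ubiquitin ligase, was at 15000, 14800 and 14800. Pkp4, a protein of cell junctions, had a mean of 21700 ± 255 (SD, n = 3), Oxct1, an enzyme of ketone use, 19300 ± 278, and Oaz1, an inhibitor of polyamine synthesis, 86300 ± 1450. The respiratory chain subunits Ndufb5 (27300 ± 408) and Ndufs6 (29100 ± 555), the proton pump subunit Atp6v1f (28000 ± 502), the RNA-binding protein Msi2 (29000 ± 447) and Maea (15000 ± 281) were among them, and Mbp completed the 10. The median SD on the log2 scale was smaller at higher signal, from 0.39 in the lowest of 4 equal classes of signal to 0.25 in the highest, so brighter genes had the smaller spread in general.

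Averages over whole lists showed which tissues varied together over the arrays. For each list the mean of log2(signal + 160) over its measured genes was taken on each array, and its deviation from the mean of the 3 arrays is given for replicates 1, 2 and 3 in that order. Over all genes these deviations were -0.02, 0.04 and -0.03. Choroid plexus had the widest range, with -1.16, 1.27 and -0.11. Skeletal muscle followed replicate 2 in the same direction, with -0.54, 0.87 and -0.33. Neuronal genes stood at 0.48, 0.26 and -0.74, and hypothalamic and pituitary hormones at 0.14, 0.25 and -0.38, so both were lowest on replicate 3.

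Several lists of the wall stood in the opposite order to the neurons. Contractile smooth muscle stood at -0.44, 0.03 and 0.41, and 25 of its 26 genes were lowest on replicate 1 and 21 highest on replicate 3. Among all genes 34.0% were lowest on replicate 1 and 36.2% highest on replicate 3. Pericyte genes stood at -0.41, 0.1 and 0.31, basement membrane at -0.35, 0.07 and 0.28 and endothelium at -0.21, -0.07 and 0.28. All 4 lists were lowest on replicate 1 and highest on replicate 3. Fibrillar collagen and adventitia (-0.12, -0.2 and 0.32), leptomeninges (-0.14, -0.21 and 0.35), macrophages (-0.14, -0.22 and 0.35) and the erythroid list (-0.17, -0.16 and 0.33) shared another pattern, high on replicate 3 with replicates 1 and 2 close together. Vascular tone genes, at -0.12, 0.09 and 0.03, followed neither pattern. Ribosomal proteins, at -0.06, -0.12 and 0.18, deviated the same way by a smaller amount. Each signal is relative to its array's trimmed mean, so a tissue that gives more signal on an array lowers the others there, and these directions are not independent of each other.

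**Figure D4:**
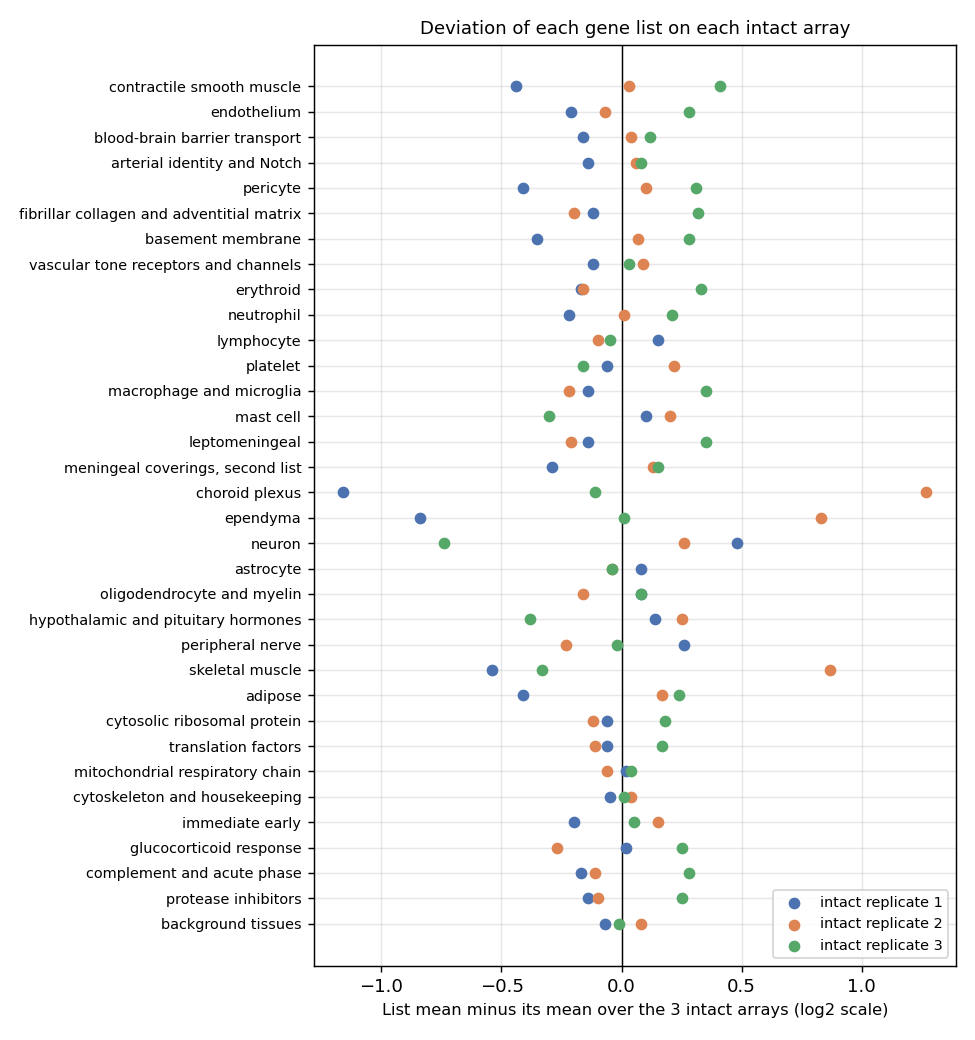
Deviation of each list's mean log2 signal on each intact array from its mean over the 3 arrays. Each point is 1 array and 0 is the list's own mean. Choroid plexus spreads from -1.16 to 1.27, smooth muscle and neurons run in opposite directions, and the astrocyte and respiratory chain list means stay near 0.

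The list means of brain glia were steady by comparison. The range of the astrocyte mean over the intact arrays was 0.11 on the log2 scale and that of the myelin list 0.24, against 1.22 for neurons. Single astrocyte genes were no steadier than others, with a median SD of 0.29 against 0.28 for all genes. Of these genes 6, 6 and 5 were highest on replicates 1, 2 and 3. The median SD of the myelin list was 0.24. In the 4 operated groups the astrocyte range was 0.38 to 0.77 and the myelin range 0.66 to 1.07, so the intact arrays were closer together than any operated group for both lists. The reverse was seen for contractile smooth muscle, with 0.85 in the intact group against 0.18 to 0.72, and for pericytes, with 0.72 against 0.12 to 0.39. It was also seen for basement membrane, with 0.62 against 0.08 to 0.27, and for skeletal muscle, with 1.4 against 0.04 to 0.62. Leptomeninges (0.56 against 0.32 to 0.39) and protease inhibitors (0.39 against 0.11 to 0.22) were wider than every operated group too. So were erythroid (0.5 against 0.06 to 0.42) and fat cell genes (0.66 against 0.08 to 0.59). Macrophage, complement and translation factor lists exceeded the widest operated group narrowly. Respiratory chain (0.1 against 0.11 to 0.22) and housekeeping lists (0.08 against 0.12 to 0.22) were among those below every operated group. The choroid plexus range of 2.44 was close to the widest operated group, at 2.38, and the narrowest was 0.05. A range of 3 arrays is imprecise, and no test of these differences was made.

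Many of these ranges were set by 1 array. Without replicate 1 the range of contractile smooth muscle was 0.38, that of pericytes 0.2, that of basement membrane 0.21, that of choroid plexus 1.39 and that of astrocytes 0. Without replicate 2 the range of choroid plexus was 1.04, that of skeletal muscle 0.21 and that of myelin 0.01. Without replicate 3 the neuronal range was 0.22, that of hormones 0.11 and that of contractile smooth muscle 0.47, and those of endothelium, adventitial matrix, macrophages, leptomeninges and erythroid genes were 0.14, 0.06, 0.08, 0.08 and 0.01. Each array thus differed from the others in another set of tissues, replicate 1 in pericytes and basement membrane, replicate 2 in skeletal muscle, and replicate 3 in neurons, while the smooth muscle and choroid plexus ranges rested on more than 1 array.

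**Figure D5:**
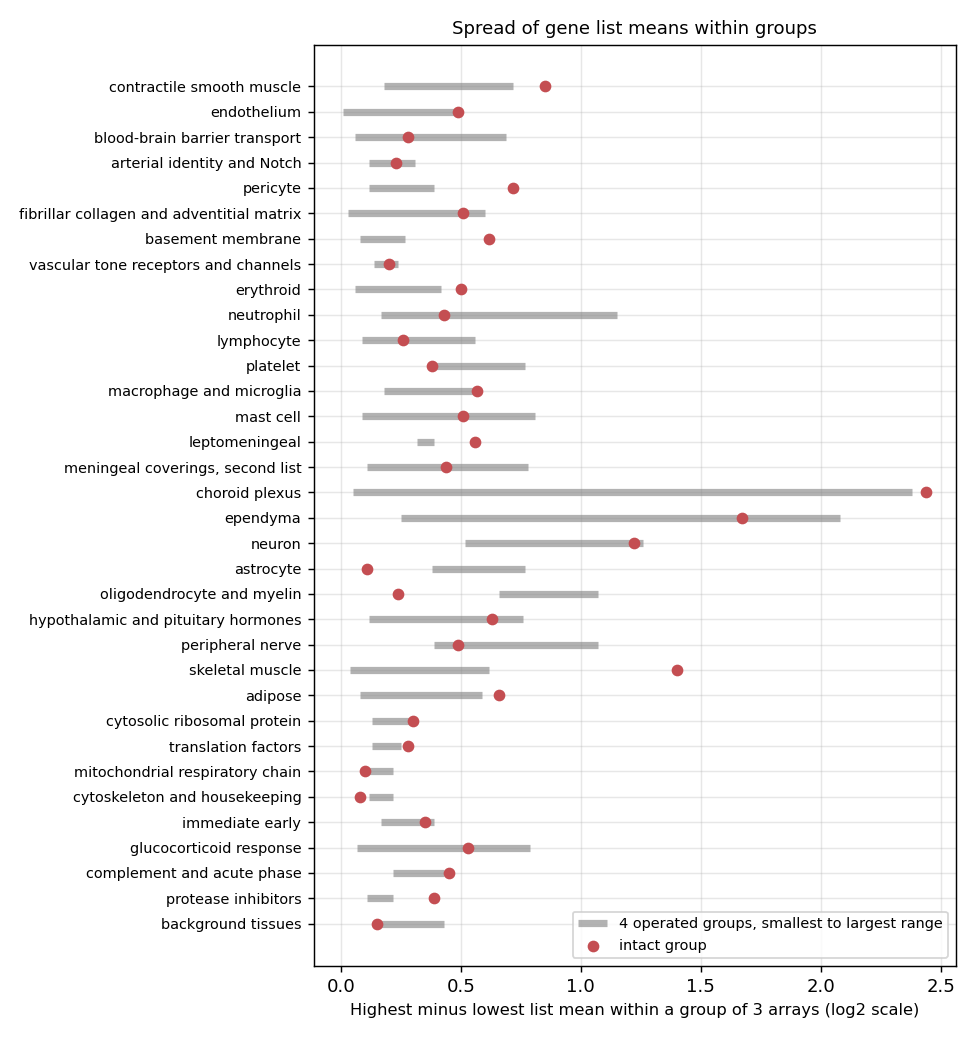
Difference between the highest and lowest list mean within a group of 3 arrays, on the log2 scale. Red points are the intact group and grey bars run from the smallest to the largest range among the 4 operated groups. Smooth muscle, pericyte, basement membrane, leptomeningeal, protease inhibitor and skeletal muscle lists are among those to the right of their bars. Astrocyte and myelin lists are among those to the left.

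Pairs of intact arrays differed in many genes. Of 8369 genes above the limit on at least 1 array, 6.37% differed by more than 1 on the log2 scale between replicates 1 and 2, 7.47% between replicates 1 and 3 and 9.75% between replicates 2 and 3. In the last pair 248 genes were higher and 568 lower on replicate 3. Of 195 genes named by rule, 33 had a further probe set above the limit, and for 18 of them every such probe set was highest on the same array as the one given.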

How the data were processed

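RNA was measured on Affymetrix Rat230A arrays. The deposited values are linear intensity signals that the authors made in GCOS, per the submitters' processing notes, with its version not given in the sources used here, and scaled on each array. Their stated global target is 500, but the trimmed mean, leaving out 2% of probe sets at either end, came to 5000. Probe sets were named through the platform annotation, updated by Entrez and RefSeq identifiers: 12783 had 1 gene, 312 several and 2771 none. Means and SDs are of linear signal, and spreads of log2(signal + 160). No test was made, since a single group is described. The number of arrays limits the precision. Named genes were the 30 brightest, the 20 most and, among bright genes, the 10 least variable, and in each of 34 lists the defining markers and the 4 brightest. Members and lists were chosen with earlier results of these data known. Calculations used Python 3.11.15, numpy 2.4.6 and pandas 2.3.3, were checked on simulated data, and were repeated with other pseudocounts, limits, normalization and probe set averaging and without each array. Coordinates are given for promoters only.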

Additional observations from a re-analysis of the deposited data

How the results depend on the processing

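No paired analysis was possible because the result comes from no test and the labels give no replicate numbers shared between groups. Of the 30 brightest genes, 26 to 30 stayed among the 30 under every alternative run. Of the 20 most variable genes 13 stayed with a pseudocount of 16, and 7 to 16 when an array was left out. Leaving out each array in turn gave ranges of list means of 0.38 to 0.85 for contractile smooth muscle, 0.14 to 0.51 for endothelium, 0.06 to 0.5 for adventitial matrix, 0.01 to 0.5 for erythroid genes, 0.08 to 0.57 for macrophages, 0.08 to 0.56 for leptomeninges, 1.04 to 2.44 for choroid plexus, 0.22 to 1.21 for neurons, 0 to 0.11 for astrocytes and 0.01 to 0.24 for myelin. It gave 4 to 9 bright choroid plexus genes and 4 to 8 bright macrophage genes. A range over 2 arrays can be no wider than one over 3 where the same probe sets are used. Quantile normalization gave an astrocyte range of 0.21. Averaging all probe sets of a gene left 7 bright neuronal genes. With bright set at the top 25%, 7 endothelial, 20 matrix, 4 erythroid, 13 choroid plexus, 21 neuronal and 9 myelin genes were bright. A limit at the highest background gene, 2260, left 10 choroid plexus genes above it and 57.6% of all genes. The limit is a convention of this description, and signals near it cannot be told from background.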

Other observations

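The genes that set single intact arrays apart had these signals on the 12 operated arrays. All but Snap25 were chosen by their wide spread over the intact arrays. That choice favours an extreme value on an intact array. Gabra6 ranged from 165 to 2060 there, against 26700 on intact replicate 1, and Pcp2 from 1300 to 6450, against 61800. Neurod1 ranged from 639 to 2980 and Pvalb from 1130 to 5520, so intact replicate 1 was the highest of all 15 arrays for these 4 genes. Snap25 ranged from 16600 to 69100, against 125000 on intact replicate 1. Choroid plexus genes differed in this respect: Ttr ranged from 9350 to 261000, Enpp2 from 6290 to 167000 and Sostdc1 from 1610 to 60000, so high signals were found among operated arrays too. Avp reached 46200 and Oxt 18600 on an operated array, above each of the intact arrays. Cox8b, by contrast, was at 695 or less on every operated array, against 8010 on intact replicate 2.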
